A study of Danio rerio with 4 samples.

Results

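Expression of 5 genes was examined in sorted adult zebrafish (Danio rerio) cardiomyocytes: myh6, smtnl1 and sypl2b, used as atrial markers, and nppa and nppb, the natriuretic peptide genes. They were chosen by symbol, with earlier results of these data known, and all 5 were found among the 18105 genes of the deposited table. RNA-seq was made from 2 groups of FACS-sorted cells with 2 libraries each. In the first, tp1:EGFP+/myl7:DsRed2-NLS+, shortened here to tp1:EGFP+, each sample had 2000 cells that carried a Notch-responsive tp1 reporter together with nuclear DsRed2 driven by the cardiomyocyte promoter of myl7. In the second, myl7:EGFP+, each sample had 7000 cells marked by EGFP from the myl7 promoter alone, so it takes in cardiomyocytes at large, with or without Notch activity. All cells came from adult ventricles. The sources used here do not say how many hearts were pooled, whether hearts had been injured, or whether the replicates came from separate fish. The p-values therefore rest on spread between these libraries, which may be technical. In the test each gene's spread was moderated toward that of genes with similar values.

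The heart pumps through atrial and ventricular chambers whose cardiomyocytes use different myosin heavy chains, and in zebrafish myh6 encodes the atrial one. Natriuretic peptides are hormones that cardiomyocytes make as precursors: nppa encodes atrial natriuretic peptide and nppb the B-type peptide. In mammals the peptides are cut from their precursors by the proteases corin and furin, act on receptors that make cyclic GMP, and are cleared by the receptor Npr3. In the developing zebrafish heart nppa marks the working muscle of both chambers, so unlike myh6 it does not separate atrium from ventricle.

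Values are normalized read counts, rounded to whole numbers by the authors. They summed to 1660511 and 2041552 in tp1:EGFP+ replicates 1 and 2, and to 1552636 and 2130733 in myl7:EGFP+ replicates 1 and 2. In the replicate 2 libraries the values moved in steps of 2.98 (tp1:EGFP+) and 3.109 (myl7:EGFP+), the worth of 1 read, which puts their depth at about 684970 and 685344 reads. In the replicate 1 libraries the step was too fine to be read, so these were deeper. The replicate 2 libraries stood apart in another way: of 15 rows for cardiomyocyte markers, 13 were higher in replicate 2 than in replicate 1 of tp1:EGFP+ and 15 in myl7:EGFP+, with median ratios of 3.21 and 3.65, against 0.9 and 0.896 over all genes tested. Results are therefore also given within each replicate number.

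Differences were tested with limma on log2(value + 1) across the 9921 genes whose mean reached 10, and a gene was called at a Benjamini-Hochberg adjusted p under 0.05. A gene absent from both libraries of a group passes this filter through the other group alone. A call in the opposite direction was then not possible. Of the 5 genes, 3 were called, 1 higher and 2 lower in tp1:EGFP+, and 2 were not. Over all genes tested 34.1% were called, 16.1% higher and 18.0% lower, so calls are common in this comparison and 3 of 5 is not read as particular to these genes. The values of the 2 groups did not overlap for the 3 called genes, as for 68.9% of all genes tested (34.1% higher and 34.8% lower in tp1:EGFP+). When any 1 library was left out, the myh6 and sypl2b calls ended, and calls over all genes also became far fewer. The number of sorted cells differed between the groups along with the reporter, and their effects cannot be told apart.

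**Figure D1:**
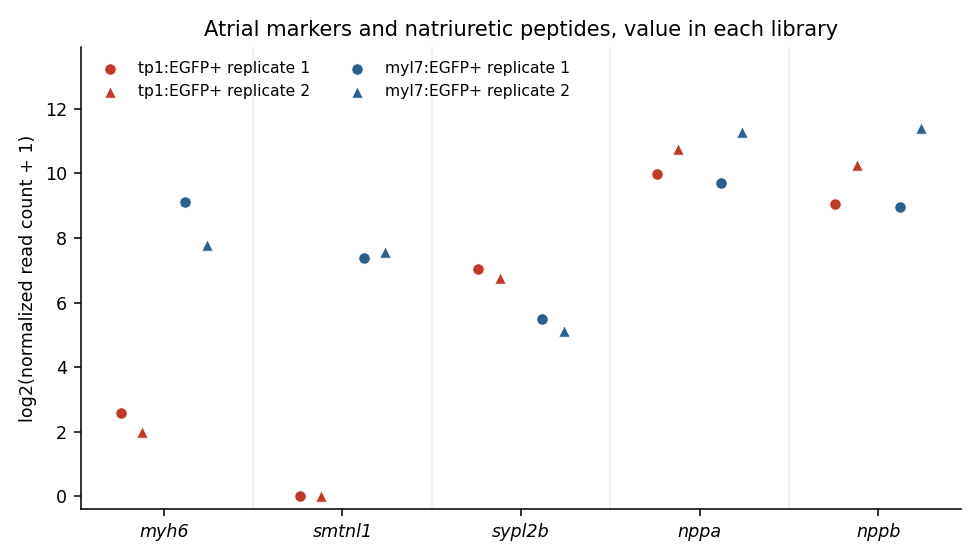
The vertical axis gives log2(normalized read count + 1) and each point is 1 library, with tp1:EGFP+ libraries in red and myl7:EGFP+ libraries in blue. For myh6 and smtnl1 both tp1:EGFP+ libraries lie far below both myl7:EGFP+ libraries, for sypl2b they lie above, and for nppa and nppb the groups overlap while replicate 2 lies above replicate 1 in each group.

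The atrial myosin gene myh6 (ENSDARG00000090637, chromosome 20, 53577502 to 53583436, plus strand, GRCz11) was almost absent from tp1:EGFP+ cells. It had 5 and 3 normalized read counts in tp1:EGFP+ replicates 1 and 2, against 550 and 221 in myl7:EGFP+ replicates 1 and 2. Both tp1:EGFP+ values were lower than both myl7:EGFP+ values, and the 3 in tp1:EGFP+ replicate 2 is the worth of a single read. The means were 4.0 ± 1.41 in tp1:EGFP+ and 385.5 ± 233 in myl7:EGFP+ (SD, n = 2 each). The log2 difference was -6.16 ± 0.58 (SE), with a 95% interval from -7.66 to -4.66 and a limma adjusted p of 0.00261. Within replicate 1 it was -6.52 and within replicate 2 -5.79, and 77 of the 9921 genes had a more negative difference. Leaving out any 1 of the libraries kept the log2 difference between -6.81 and -5.50 but ended the call (limma adjusted p 0.0781 to 0.093, and 3.67e-06 to 0.093 over all alternatives). In bulk RNA, fewer cells of a type and less RNA per cell cannot be told apart.

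Within each library, myh6 can be set against the ventricular myosin genes. These are named myh7 and myh7l in the table, which pairs them with the older symbols vmhc and vmhcl. As read counts not corrected for length, myh6 equalled 0.131% and 0.0252% of the myh7 value in tp1:EGFP+ replicates 1 and 2, against 23.8% and 5.26% in myl7:EGFP+. Relative to myh7l it equalled 0.125% and 0.0168% in tp1:EGFP+, against 18.0% and 1.00% in myl7:EGFP+. Such ratios do not depend on the scaling between libraries, and for both myosins they were lower in both tp1:EGFP+ libraries. The ventricular genes themselves did not pass the test. The values of myh7 were 3830 and 11924 in tp1:EGFP+, against 2312 and 4203 in myl7:EGFP+ (log2 difference 1.12 ± 1.12 SE, limma adjusted p = 0.496), and those of myh7l were 4014 and 17866 against 3056 and 22102. Cardiac myosin heavy chains are similar in sequence, and the sources used here do not say how reads that match several of them were counted.

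The gene smtnl1 encodes smoothelin-like 1, which in mammals is a muscle protein phosphorylated by cyclic nucleotide-dependent kinases. It lies on chromosome 14 (ENSDARG00000041257, 17108003 to 17121713, minus strand). Both tp1:EGFP+ libraries listed it at 0, against 167 and 190 normalized read counts in myl7:EGFP+ replicates 1 and 2. The myl7:EGFP+ values were close to each other, with a ratio of replicate 2 to replicate 1 of 1.14, where that of myh6 was 0.402. The gene was called lower (limma adjusted p = 0.00213) and is 1 of 341 genes, 3.44% of those tested, that were called lower with a value of 0 in both tp1:EGFP+ libraries. It passed the filter through myl7:EGFP+ alone, so only a lower call was open to it. The tied values of 0 also lowered its spread in this fit. No fold change is given against a group listed at 0. The call held without tp1:EGFP+ replicate 1 or replicate 2 (limma adjusted p = 0.043 and 0.0482, within 1.28e-05 to 0.0482 over all alternatives). Without a myl7:EGFP+ library the values of 0 alone set the spread, so those fits are no check of it.

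The gene sypl2b went the other way. It encodes a synaptophysin-like protein whose mammalian relative, mitsugumin 29, lies in the membranes that couple excitation to contraction in skeletal muscle. It is on chromosome 8 (ENSDARG00000000690, 25079470 to 25090458, plus strand). Its values were 130 and 107 in tp1:EGFP+ replicates 1 and 2, against 44 and 34 in myl7:EGFP+. Both tp1:EGFP+ libraries were higher than both myl7:EGFP+ libraries, with means of 118.5 ± 16.3 and 39.0 ± 7.07 (SD, n = 2 each). The log2 difference was 1.58 ± 0.32 (SE), with a 95% interval from 0.76 to 2.41 and a limma adjusted p of 0.0201. It was 1.54 within replicate 1 and 1.63 within replicate 2, and 1606 genes had a larger positive difference. The call ended when any 1 library was left out (limma adjusted p 0.108 to 0.154) and under scaling to a common total (0.0707), within 0.0006 to 0.154 over all alternatives. The 3 atrial markers thus did not move as 1 group, with myh6 and smtnl1 lower and sypl2b higher in tp1:EGFP+.

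The natriuretic peptide genes were among the more abundant transcripts of both groups and neither was called. The gene nppa (ENSDARG00000052960, chromosome 8, 48613040 to 48617664, plus strand) had 1000 and 1740 normalized read counts in tp1:EGFP+ replicates 1 and 2, against 832 and 2487 in myl7:EGFP+. The tp1:EGFP+ values lay inside the range of the myl7:EGFP+ values. By read count, not corrected for length, nppa ranked 224 and 173 among all genes of the table in tp1:EGFP+ and 271 and 100 in myl7:EGFP+. The log2 difference was -0.13 ± 0.70 (SE), with a 95% interval from -1.92 to 1.67 (limma adjusted p = 0.916). It was 0.27 within replicate 1 and -0.52 within replicate 2. The interval leaves room for a change of several fold in either direction, so the values do not show that the groups were alike. It comes from a fit without the replicate number, so its width includes the rise from replicate 1 to replicate 2 in both groups.

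The gene nppb (ENSDARG00000052958, chromosome 8, 48609521 to 48610544, plus strand) had 526 and 1231 in tp1:EGFP+ replicates 1 and 2, against 494 and 2702 in myl7:EGFP+. Again both tp1:EGFP+ values fell inside the myl7:EGFP+ range, and the value in myl7:EGFP+ replicate 2 stood above the other 3. The log2 difference was -0.52 ± 0.94 (SE), with a 95% interval from -2.95 to 1.90 (limma adjusted p = 0.715). It was 0.09 within replicate 1 and -1.13 within replicate 2. For both genes the sign depended on the library left out. Without myl7:EGFP+ replicate 2 the log2 difference was 0.66 for nppa and 0.70 for nppb, and without tp1:EGFP+ replicate 1 it was 0.27 and 0.09.

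Both peptide genes differed more between replicate numbers than between groups. The value in replicate 2 was 1.74 times that in replicate 1 for nppa and 2.34 times for nppb in tp1:EGFP+, and 2.99 and 5.47 times in myl7:EGFP+. The called atrial genes did not share this: the ratio was 0.6 for myh6 and 0.823 for sypl2b in tp1:EGFP+, and 0.402, 1.14 and 0.773 for myh6, smtnl1 and sypl2b in myl7:EGFP+. Cardiomyocyte markers such as myl7, the myosin light chain gene whose promoter drives a reporter in each group, were likewise higher in replicate 2, with myl7 at 765 and 3916 in tp1:EGFP+ and 565 and 4206 in myl7:EGFP+. Set against myl7 within each library, nppa equalled 131% and 44.4% of it in tp1:EGFP+, against 147% and 59.1% in myl7:EGFP+. For nppb these shares were 68.8% and 31.4% in tp1:EGFP+, against 87.4% and 64.2% in myl7:EGFP+. Both were lower in tp1:EGFP+ at each replicate number, but the groups overlapped across numbers, and an exact permutation test of 2 against 2 cannot go below a two-sided p of 0.333.

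**Figure D2:**
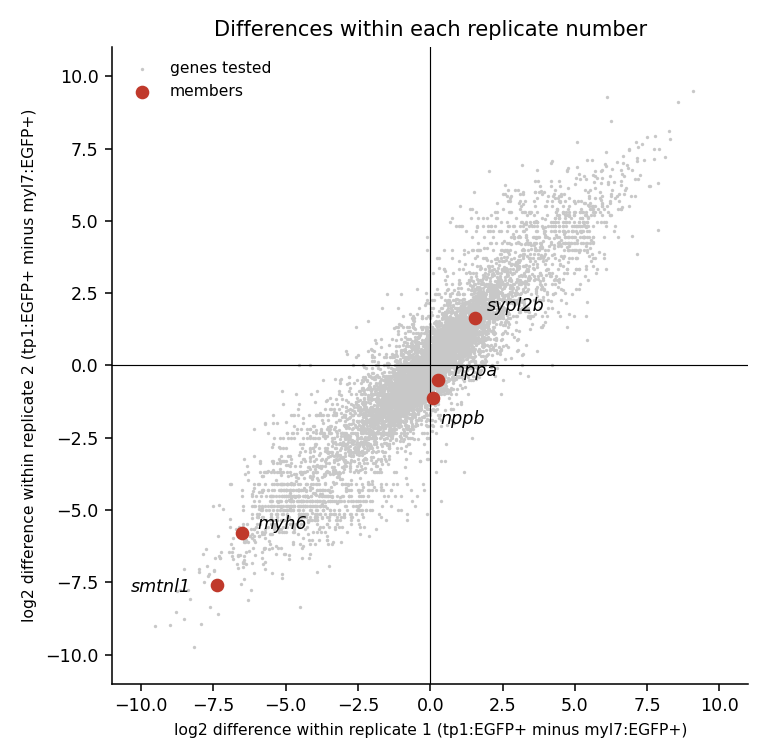
Each axis gives the log2 difference, tp1:EGFP+ minus myl7:EGFP+, between libraries of 1 replicate number, and each grey point is 1 of the 9921 genes tested, with the 5 genes in red. myh6 and smtnl1 lie far down the diagonal, sypl2b lies up it at 1.54 and 1.63, and nppa and nppb lie near 0 for replicate 1 and below 0 for replicate 2. The place of smtnl1 depends on the pseudocount of 1, since it is at 0 in tp1:EGFP+.

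The peptide genes stand side by side in the genome. From nppb to nppa 2495 bases separate the 2 gene models, both on the plus strand, and 5169 bases before nppb lies nppal, another natriuretic peptide-like gene, named after its values were seen. It had 1 and 3 in tp1:EGFP+ and 2 and 3 in myl7:EGFP+, under the filter and near the worth of 1 read, so of these 3 neighbours nppa and nppb alone gave substantial values. Within a library nppb equalled 52.6% and 70.7% of the nppa read count in tp1:EGFP+, against 59.4% and 109% in myl7:EGFP+, and the groups overlapped. The next gene, clcn6, which encodes a chloride transporter, lies on the minus strand. Its lower coordinate is 16455 bases from the start of nppa. It had 4 and 0 in tp1:EGFP+ against 27 and 40 in myl7:EGFP+ and was called lower (limma adjusted p = 0.0261).

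Other genes whose lower coordinate, on either strand, lies within 60000 bases of that of a member were looked at in the same way. All 3 around myh6 had a value of 0 in each tp1:EGFP+ library. Such values are common: of 18105 genes, 12558 were above 0 in tp1:EGFP+ replicate 1 and 11516 in replicate 2. Of the 3 genes around myh6, slc25a47a, a mitochondrial carrier gene with 41 and 19 in myl7:EGFP+, was called lower (limma adjusted p = 0.00341). The other genes, slc25a29 (6 and 6) and pak6b (1 and 6), were under the filter. Beside smtnl1, slc43a3b had 0 and 0 in tp1:EGFP+ and 1 and 3 in myl7:EGFP+. Around sypl2b the genes differed in direction. The nearest by lower coordinate, atxn7l2b, rose to 46 and 27 in tp1:EGFP+, against 10 and 3 in myl7:EGFP+ (limma adjusted p = 0.0489). The gene sort1b, which encodes the sorting receptor sortilin, fell to 29 and 57, against 230 and 218 (limma adjusted p = 0.0111).

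The rest of the natriuretic system showed its largest differences at the receptors. Of 14 genes found in the table from a list of 24, 8 were tested, 3 rose, 1 fell and 4 were not called, with a median log2 difference of 0.49 against 0.01 over all genes tested. With any 1 library left out these calls ended, apart from that of npr2, described below. Over all genes tested 16.1% rose and 18.0% fell. The clearance receptor gene npr3 had 143 and 137 in tp1:EGFP+, against 2 and 0 in myl7:EGFP+. Both tp1:EGFP+ libraries were far above both myl7:EGFP+ libraries (log2 difference 6.35 ± 0.67 SE, limma adjusted p = 0.00362). The size rests on myl7:EGFP+ values near 0: the log2 difference was 3.775 with a pseudocount of 10, and 5.554 to 7.139 with a library left out. The receptor gene npr2, which in mammals answers to the C-type peptide, had 91 and 51 in tp1:EGFP+, and both myl7:EGFP+ libraries listed it at 0 (limma adjusted p = 0.00213). It passed the filter through tp1:EGFP+ alone, so only a higher call was open to it. The cyclase-coupled receptor genes for the peptides that nppa and nppb encode, npr1a and npr1b, were listed at 0 in all 4 libraries. The npr3 call ended when any 1 library was left out and the npr2 call without either myl7:EGFP+ library. Without a tp1:EGFP+ library the npr2 values of 0 alone set the spread, so those fits are no check of it.

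Precursor processing and cyclic GMP genes showed smaller differences. The protease gene corin had 215 and 80 in tp1:EGFP+, against 324 and 224 in myl7:EGFP+, without overlap but not called (log2 difference -1.03 ± 0.53 SE, limma adjusted p = 0.198). The protease gene furina, at 988 and 554 against 674 and 578, was not called either. With the replicate number as a block, 2 genes of the list were called lower. Of its tested genes only corin and pde3b had negative differences. The cyclic GMP-dependent kinase gene prkg1b had 400 and 468 in tp1:EGFP+ and 412 and 389 in myl7:EGFP+. The phosphodiesterase gene pde3b, whose mammalian product is inhibited by cyclic GMP, fell to 135 and 155 in tp1:EGFP+, against 295 and 326 in myl7:EGFP+ (log2 difference -1.09 ± 0.23 SE, limma adjusted p = 0.0235). Its relative pde3a had 69 and 57 against 41 and 34 and was not called. The gene ide, whose enzyme breaks down insulin and, in mammals, natriuretic peptide, rose to 266 and 271 in tp1:EGFP+, against 153 and 127 in myl7:EGFP+ (log2 difference 0.94 ± 0.24 SE, limma adjusted p = 0.0369). Neither call held when a library was left out, with a common total or without the trend, and the ide call also ended with no filter and with a mean of at least 50 (highest limma adjusted p 0.141 for pde3b and 0.168 for ide).

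**Figure D3:**
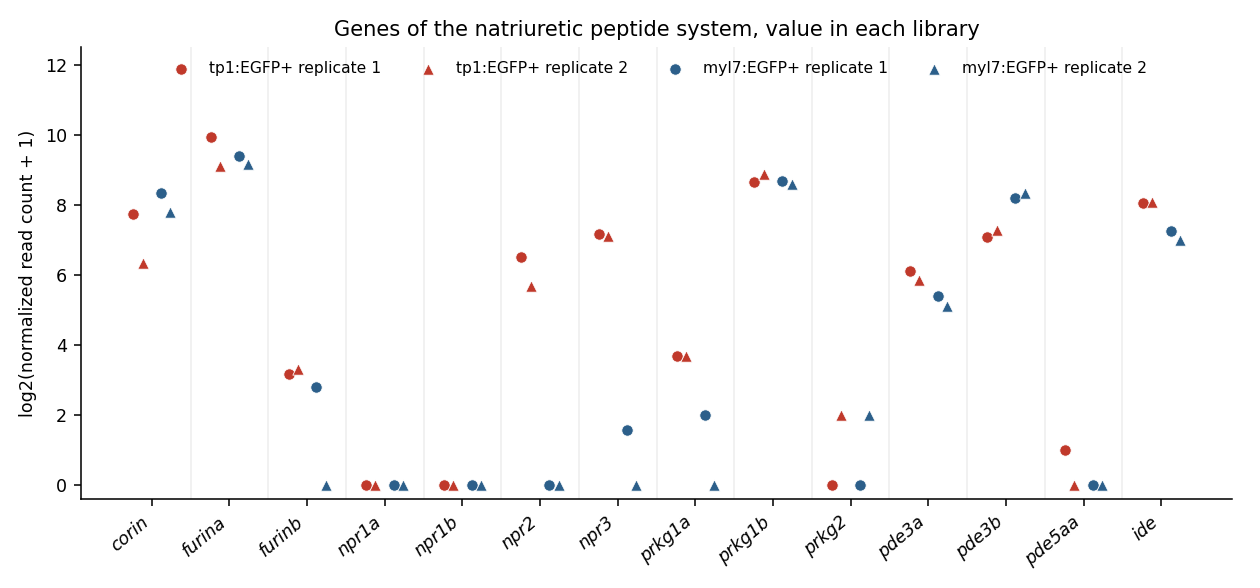
The vertical axis gives log2(normalized read count + 1) for the 14 genes of the natriuretic list in each library, tp1:EGFP+ in red and myl7:EGFP+ in blue, ordered from processing proteases through receptors to cyclic GMP enzymes. npr2 and npr3 are near 0 in myl7:EGFP+ and not in tp1:EGFP+, npr1a and npr1b are at 0 in all 4 libraries, and pde3b is lower in tp1:EGFP+.

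Markers of other cells also differed between the groups. Mural, smooth muscle, epicardial and fibroblast markers are given here. Endothelial and endocardial markers, mostly lower, and erythroid markers, mostly higher, are given further below. Over all genes tested 16.1% rose and 18.0% fell. Of 8 tested mural and smooth muscle markers 7 rose (1 to 3 with a library left out) and 0 fell, and the summed values of the 12 listed rows were 2847 and 4904 in tp1:EGFP+, against 800 and 1314 in myl7:EGFP+. The largest value in the tp1:EGFP+ sums was acta2, named after its values were seen, at 1083 and 3022 against 128 and 134. In the myl7:EGFP+ sums it was rgs5b, not called, at 438 and 1032 against 353 and 545 in tp1:EGFP+. Among the markers that rose, myh11a and pdgfrb had 60 and 48, and 19 and 27, in tp1:EGFP+ and were at 0 in myl7:EGFP+. Likewise notch3 had 474 and 370 in tp1:EGFP+ against 22 and 9, and tagln 451 and 510 against 24 and 6. Being at 0 in myl7:EGFP+, myh11a and pdgfrb passed the filter through tp1:EGFP+ alone, so only a higher call was open to them. The same holds for fn1b and col12a1a among the epicardial and fibroblast markers. Of 9 tested epicardial and fibroblast markers 4 rose (0 to 2 with a library left out) and 1 fell (0 to 1). Their sums were lower in tp1:EGFP+, at 344 and 336 against 584 and 552 in myl7:EGFP+. The gene that fell, clu, had 53 and 48 in tp1:EGFP+ against 414 and 395 in myl7:EGFP+. Without it, a choice made after values were seen, the sums were 291 and 288 in tp1:EGFP+ and 170 and 157 in myl7:EGFP+. The direction of the sum thus depended on clu. The gene col1a2 was also lower without overlap, at 22 and 42 against 65 and 87, but not called. The part of such cells, or of the other cell types given further below, in the npr2 and npr3 values was not tested.

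Of the atrial genes tested outside the 3 markers, bmp10l, gja5b and tbx5a were called lower in tp1:EGFP+. The others, gja5a (log2 difference -1.34) and tbx5b (-1.18), were lower but not called. The whole atrial identity list includes the 3 markers and was drawn up with earlier results of these data known. It had 8 tested genes of 14 present. Of these 1 rose, the marker sypl2b, 5 fell, myh6 and smtnl1 among them, and 2 were not called. Over all genes tested 16.1% rose and 18.0% fell. The median log2 difference of the list, -3.86, also counts the markers. The genes smtnl1, bmp10l and gja5b passed the filter through myl7:EGFP+ alone, so only a lower call was open to them. With any 1 library left out, 2 to 3 fell and 0 rose, the higher count without a myl7:EGFP+ library, where values of 0 set the spread. Besides myh6 and smtnl1, the genes that fell were bmp10l, gja5b and tbx5a. The gene bmp10l, related to the myocardial growth factor gene bmp10, had 0 and 0 in tp1:EGFP+, against 509 and 501 in myl7:EGFP+ (limma adjusted p = 0.00213). Its call held without either tp1:EGFP+ library (limma adjusted p up to 0.0251 over all alternatives), and fits without a myl7:EGFP+ library are no check, as for smtnl1. The connexin gene gja5b was also listed at 0 in tp1:EGFP+, against 368 and 131 in myl7:EGFP+ (limma adjusted p = 0.00213). Its call ended without tp1:EGFP+ replicate 1 or replicate 2 (limma adjusted p up to 0.0843 over all alternatives). The T-box factor gene tbx5a had 58 and 63 in tp1:EGFP+, against 244 and 134 in myl7:EGFP+ (log2 difference -1.57 ± 0.37 SE, limma adjusted p = 0.0307), a call that ended when any 1 library was left out, with no filter, with a common total and without the trend. The nuclear receptor gene nr2f1a, which sets atrial identity in zebrafish, was listed at 0 in all 4 libraries, and bmp10, under the filter, had 0 and 0 in tp1:EGFP+ against 22 and 12 in myl7:EGFP+.

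Endothelial and endocardial markers were mostly lower too, where 16.1% of all genes tested rose and 18.0% fell. Of 13 tested, 2 rose and 9 fell (1 to 3 with a library left out), with sums over 20 listed rows of 203 and 171 in tp1:EGFP+, against 966 and 658 in myl7:EGFP+, and tie1, fli1a and erg were at 0 in tp1:EGFP+. The 2 that rose were cldn5b, at 29 and 27 in tp1:EGFP+, and pecam1, named after its values were seen, at 19 and 30, both at 0 in myl7:EGFP+. These 2, like tie1, fli1a and erg, passed the filter through a single group, so each could be called in that direction only. The pecam1 call ended without either myl7:EGFP+ library. Without a tp1:EGFP+ library its values of 0 alone set the spread, so those fits are no check of it. The part of endothelial cells in the atrial values, and that of atrial cells in the myl7:EGFP+ sort, was not tested.

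Of 14 listed ventricular genes present, 10 were tested: 2 rose, 0 fell and 8 were not called, with a median log2 difference of 0.18, where 16.1% of all genes tested rose and 18.0% fell. The SEs of the ventricular myosins were wide, at 1.12 for myh7 and 1.95 for myh7l on the log2 scale. They include the rise of both genes between replicate numbers in both groups. The repressor gene hey2, which in mice holds down atrial genes in the ventricle, had 435 and 450 in tp1:EGFP+, against 54 and 68 in myl7:EGFP+ (log2 difference 2.85 ± 0.25 SE, limma adjusted p = 0.00221). The tp1:EGFP+ cells were sorted by a Notch-responsive reporter, and the part of Notch activity in the hey2 values was not tested. The transcription factor gene hand2 rose to 919 and 1314 in tp1:EGFP+, against 459 and 479 in myl7:EGFP+ (log2 difference 1.23 ± 0.33 SE, limma adjusted p = 0.0455). Both calls ended when any 1 library was left out, and that of hand2 also with no filter, with a mean of at least 50 and without the trend. The homeobox gene irx1a had 631 and 593 against 380 and 342 and was not called (limma adjusted p = 0.0775).

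**Figure D4:**
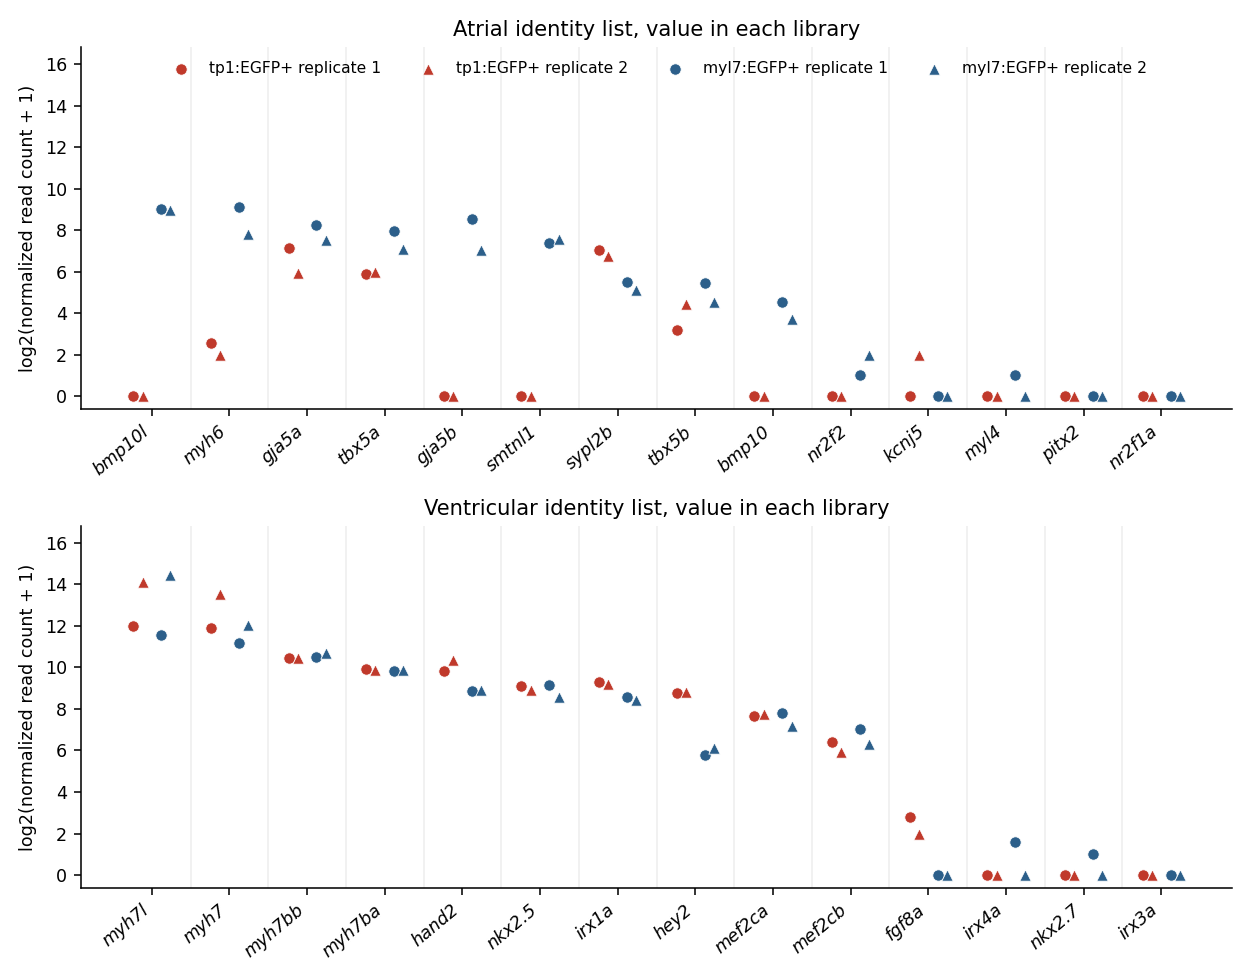
Both panels give log2(normalized read count + 1) in each library, tp1:EGFP+ in red and myl7:EGFP+ in blue, for the listed atrial genes (top) and ventricular genes (bottom), ordered by their summed value. In the atrial panel bmp10l, gja5b and smtnl1 sit at 0 in tp1:EGFP+ and sypl2b is higher there. In the ventricular panel hey2 and hand2 are higher in tp1:EGFP+. The myosin genes myh7, myh7l and myh7ba overlap, and myh7bb is slightly lower in tp1:EGFP+ without overlap.

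Of 18 tested transcription factors listed as regulators of natriuretic genes, 4 rose, 2 fell and 12 were not called, with a median log2 difference of 0.19. The share called was near the 34.1% of all genes tested. Besides hey2 and hand2, the genes that rose were tead1a, at 58 and 33 in tp1:EGFP+ against 3 and 6 in myl7:EGFP+ (limma adjusted p = 0.0159), and gata5, named after its values were seen, at 729 and 697 against 380 and 326 (limma adjusted p = 0.0403). The 2 that fell were tbx5a and nfatc1, and nfatc1, also a factor of the endocardium, was at 18 and 12 in tp1:EGFP+ against 79 and 47 in myl7:EGFP+ (limma adjusted p = 0.0358). The cardiac factor nkx2.5 had 554 and 474 against 562 and 379. No call in this list held when a library was left out, and that of gata5 also ended with quantile scaling, a common total or no trend, and that of nfatc1 with a common total.

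Among tested relatives of the atrial markers, only smtnb was called in the main fit. Of 5 tested smoothelin and synaptophysin family genes, the 1 that rose was the marker sypl2b itself. The 2 that fell were the marker smtnl1 and smtnb, and the 2 not called were smtnl and sypl2a. Over all genes tested 34.1% were called. The smoothelin gene smtnb fell to 55 and 51 in tp1:EGFP+, against 244 and 280 in myl7:EGFP+ (log2 difference -2.28 ± 0.25 SE, limma adjusted p = 0.00376), a call that ended when any 1 library was left out. The related gene smtnl had 780 and 560 against 1004 and 1225, without overlap but not called. With the replicate number as a block, 3 genes of these families were called lower, smtnl among them. The closest paralogue of sypl2b by name, sypl2a, had 169 and 92 in tp1:EGFP+ and 173 and 78 in myl7:EGFP+ and was not called (log2 difference 0.10 ± 0.51 SE). Relative to sypl2a in the same library, sypl2b equalled 76.9% and 116% in tp1:EGFP+, against 25.4% and 43.6% in myl7:EGFP+, as read counts not corrected for length.

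For each gene the 3 others with the most similar pattern were taken, by the root mean square distance between centred log2(value + 1) profiles over the 4 libraries. For nppa these were hsp90aa1.2 (distance 0.013), pabpc4 (0.03) and fthl27 (0.032). The chaperone gene hsp90aa1.2 had 1598 and 2724 in tp1:EGFP+ and 1318 and 3889 in myl7:EGFP+. Closest to nppb were the adenylate kinase gene ak1 (0.048), the creatine kinase gene ckma (0.133) and the tissue factor gene f3b (0.156), each highest in myl7:EGFP+ replicate 2. For sypl2b they were the beta-adrenergic receptor gene adrb2a (0.02), coq2 (0.039) and lman1 (0.052), with adrb2a at 183 and 152 in tp1:EGFP+ against 63 and 47 in myl7:EGFP+. The pattern of smtnl1 was closest to ndrg3a (0.072), smyd2b (0.199) and slc38a3a (0.21), and that of myh6 to syngr2b (0.228), st6gal2a (0.234) and abhd14b (0.245), all 6 at 0 in tp1:EGFP+. Likeness over 4 libraries is a description, and many genes share such profiles.

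The cardiomyocyte label of both sorts was set beside 15 rows of cardiomyocyte markers. All had values in all 4 libraries. They summed to 45897 and 80616 in tp1:EGFP+ and to 46768 and 92652 in myl7:EGFP+, led by the titin genes ttn.2 and ttn.1. None was called, but SEs were wide, at 1.27 for myl7 and 3.59 for ttn.2, so this does not show that the groups were alike. That of myl7 includes its rise between replicate numbers in both groups. The ttn.2 libraries were close, at 18845 and 23416 in tp1:EGFP+ and 18257 and 22692 in myl7:EGFP+. Its SE came mostly from limma's trend of spread with value. The values of ttn.1, ryr2b and ldb3b were lower in tp1:EGFP+ without overlap, and those of the other rows overlapped. With no filter or no trend 1 row fell, and with the replicate block 1 rose and 2 fell. The counts that follow stand beside 16.1% of all genes tested that rose and 18.0% that fell. Some genes counted were at 0 in both libraries of a group, hbba2 among them, and could be called in 1 direction only. Of 8 tested erythroid rows 6 rose (0 to 3 with a library left out) and 0 fell, among them hbba2, epb41b and hbba1, with sums of 255 and 480 in tp1:EGFP+ against 54 and 47 in myl7:EGFP+. Of 3 leukocyte markers cd79a rose and cd74b and cxcr4b fell (none with a library left out), and of 2 thrombocyte markers thbs1b rose and f5 fell. Of 4 atrioventricular canal genes bmp4 and has2 rose and klf2a fell, and of 3 pacemaker genes 1 rose, again bmp4. Of 4 skeletal muscle rows mybpc1 and myhz1.1 rose, and of 2 neural markers snap25b rose and syt1a fell. With a library left out, thbs1b, klf2a and snap25b were not called, bmp4, has2 and myhz1.1 were called only while both myl7:EGFP+ libraries, at 0, were kept, and f5 and mybpc1 only while both tp1:EGFP+ libraries were. Within the lists already described, the further markers chosen by rule were col12a1a, fn1b and col1a1b, which rose among epicardial and fibroblast markers.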

How the data were processed

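A SMART-Seq v4 kit turned low nanogram amounts of RNA into cDNA, per the labels' protocols, which name a pair of library kits without assigning them to libraries. The submitters' processing notes name DESeq2 1.26.0, STAR 2.6.1d, Trimmomatic 0.39, featureCounts and Subread 1.6.5, with the builds danRer11 and GRCz11. Settings, strand and multi-mapping treatment are not stated there. The values the authors deposited are a score: read counts normalized between libraries and rounded, not raw counts, so no count model was fitted. Depth could be read only for replicate 2, from the spacing of values up to 300 (684970 reads for tp1:EGFP+ and 685344 for myl7:EGFP+).

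From these, log2(value + 1) was tested with limma 3.58.1 (trend, R 4.3.3), tp1:EGFP+ minus myl7:EGFP+, across the 9921 genes whose mean reached 10, adjusted over all of them. Tables and plots used Python 3.11.15, numpy 2.4.6, pandas 2.3.3 and matplotlib 3.10.9. The alternatives were other pseudocounts, filters and scalings, no trend, the replicate number as a block, and each library left out. Intervals are limma's. They rest on each gene's spread between libraries, shifts between replicate numbers included, moderated toward the trend of spread with value over all genes tested.

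The members and gene lists were chosen with earlier results of these data known. By rule, the text names the 5 members, called genes of the natriuretic, atrial, ventricular and smoothelin and synaptophysin lists, up to 4 called genes of each other list (or its 2 most abundant) and the 3 genes closest in profile to each member. Genes of the lists named with values but not called, and genomic neighbours, were added after values were seen. Symbols come from the deposited table, where 17165 of 18105 gene IDs matched a reference name table, those of all 5 members among them. No sequences are shown, as none were used here.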

Additional observations from a re-analysis of the deposited data

How the results depend on the processing

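Over all genes, 1599 were called higher and 1783 lower. These counts were 709 and 634 with a mean of at least 50, which tests 5614 genes, and 2845 and 2876 with the replicate block. Leaving out each library in turn gave 69 to 271 higher and 137 to 365 lower. Such fits leave a lone library in a group, assumed to vary like the other group. The labels do not say that a replicate number marks a shared pool, so it was used only as an alternative. Deviations of same-numbered libraries correlated at 0.442 over genes, and the block left the calls of the 5 members as they were (1 higher, 2 lower). With the block 3 natriuretic genes were higher and 2 lower, 1 atrial identity gene higher and 6 lower, and 3 ventricular genes higher and 0 lower. Leaving out a library, the log2 difference ranged from -6.81 to -5.50 for myh6, from 1.40 to 1.765 for sypl2b, from -0.91 to 0.66 for nppa and from -1.75 to 0.70 for nppb. The peptide genes changed sign without tp1:EGFP+ replicate 1 (nppa 0.274, nppb 0.091) or myl7:EGFP+ replicate 2 (0.664 and 0.703). With a common total the log2 difference of sypl2b was 1.565 and not called. The other 44 values of members under settings other than leaving out a library kept their direction and side of the threshold, and the cause of the changes was not tested. Of the 8 tested atrial identity genes, 2 to 3 were still called lower and 0 higher without a library. In the natriuretic list only npr2 stayed called, without a tp1:EGFP+ library, where values of 0 set the spread. Depth limits myh6 in tp1:EGFP+ and values under about 3 in replicate 2.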
